A study of Mus musculus with 12 samples.

Results

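Pou5f1, Nanog and Sox2 encode OCT4, NANOG and SOX2, the transcription factors at the centre of the pluripotency network of mouse embryonic stem cells (ESCs). The 3 genes were taken by name from the array's annotation, 3 of the 27666 genes it names, and each had 1 probe among 41174 probes. Their RNA was followed after knockdown of Ino80, which encodes the catalytic subunit of the chromatin remodeller INO80. J1 mouse ESCs received a lentivirus expressing a hairpin against Ino80 (shIno80) or a non-targeting hairpin (shNT), and total RNA was collected at day 2, 4 or 6, which the series design also gives as 48, 96 and 144 hours. The cells had been maintained in ESGRO medium and were infected in M15 medium, and no other genetic change or agent is named in the labels. The 6 groups, shIno80 at day 2, shNT at day 2, shIno80 at day 4, shNT at day 4, shIno80 at day 6 and shNT at day 6, held 2 arrays each. The series design lists these as biological replicates, but no source used here says how the cultures were made, so the p-values rest on the spread between these arrays, which may in part be technical. A single cell line and 1 hairpin label per arm limit the model, and the sources used here do not say how many cells took up the virus.

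OCT4, a POU-domain protein, and SOX2, an HMG-box protein, bind DNA side by side on a joint octamer and SOX motif, and NANOG, a homeodomain protein, occupies many of the same enhancers. In ESCs the 3 proteins activate their own genes and one another's, together with a wider set of stem cell genes. They hold back regulators of other lineages. Loss of OCT4 in ESCs is known to give trophoblast-like cells, while NANOG levels vary from cell to cell in culture and its loss is tolerated.

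The 2 deposited records of the series tied 6 of the 12 arrays to different samples, because positions 2 and 3 of each of the 3 slides were exchanged between the arms. Groups here follow the columns of the value table. Under it, arrays of 1 group correlated at r = 0.987 to 0.989 over probes, whereas under the scanner files' own attachments arrays of 1 group correlated at 0.965 to 0.987. Ino80 on the log2 scale was 0.56 and 0.85 in shIno80 and 2.72 and 2.67 in shNT at day 2, -0.29 and 0.12 in shIno80 and 2.26 and 2.16 in shNT at day 4, and -0.23 and -0.01 in shIno80 and 1.89 and 2.05 in shNT at day 6. These are differences of -1.99, -2.30 and -2.09 (SE 0.17 each, limma adjusted p = 0.00078, 2.55e-05 and 2.62e-05), and the other 2 Ino80 probes gave -1.95 to -2.66. The record was chosen with the Ino80 signal and these correlations in view, so neither is an independent check. With the scanner files' attachments, 2, 7 and 0 genes passed adjusted p 0.05 in limma at days 2, 4 and 6 (654, 259 and 448 genes at unadjusted p under 0.05), and the 3 factors' differences at days 4 and 6 lay between -0.40 and 0.35 on the log2 scale with none called.

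The sequences that carry the measurements are the probes, of which the first 30 bases are shown, 5′ to 3′, from the array's deposited annotation. Each is a 60-base probe on the plus strand of build mm7, at chr17:33612047-33612107 for Pou5f1 (A_51_P202340), chr6:122750894-122750953 for Nanog (A_51_P294233) and chr3:34459231-34459290 for Sox2 (A_52_P307739). No gene model of that build was used, so whether a probe lies in coding or untranslated sequence is not given.
Pou5f1 probe: aagtattgagtattcccaacgagaagagta
Nanog probe: cttctgagctctatttacaacttggtgtgt
Sox2 probe: tggcaatcaaatgtccattgtttataagct
Pou5f1 and Nanog have processed pseudogenes in the mouse, and whether the probes also detect transcripts of those was not tested.

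Since the 3 proteins regulate one another's genes, the 250 bases before the first RefSeq start of each gene were searched on both strands for motifs of the factors and of proximal promoter regulators. They are shown from RefSeq on build GRCm38.p6, plus strand, with matches in capitals, at chr17:35505782-35506031 for Pou5f1, chr6:122707239-122707488 for Nanog and chr3:34649745-34649994 for Sox2.
Pou5f1 promoter: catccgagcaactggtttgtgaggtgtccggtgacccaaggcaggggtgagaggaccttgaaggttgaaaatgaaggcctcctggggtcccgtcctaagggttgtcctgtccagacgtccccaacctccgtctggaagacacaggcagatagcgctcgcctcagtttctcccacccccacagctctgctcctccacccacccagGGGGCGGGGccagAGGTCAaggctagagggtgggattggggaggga
Nanog promoter: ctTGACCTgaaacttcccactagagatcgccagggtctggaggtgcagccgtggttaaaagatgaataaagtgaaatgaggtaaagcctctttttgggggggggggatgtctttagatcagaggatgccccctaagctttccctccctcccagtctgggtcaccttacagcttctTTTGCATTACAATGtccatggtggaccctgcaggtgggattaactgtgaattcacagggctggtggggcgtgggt
Sox2 promoter: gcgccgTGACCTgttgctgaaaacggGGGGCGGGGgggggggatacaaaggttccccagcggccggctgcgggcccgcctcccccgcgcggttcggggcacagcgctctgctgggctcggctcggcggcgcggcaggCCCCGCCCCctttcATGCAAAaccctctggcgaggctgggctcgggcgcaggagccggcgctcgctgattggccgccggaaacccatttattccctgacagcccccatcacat
The composite OCT4-SOX2 element, which is CATTGT, 1 base of any kind and ATGCAAA, was found in the Nanog window, from -75 to -62 before the first start on the minus strand. This exact string occurred in 2 of 32851 promoter windows, and both are starts of Nanog. Variants of the element were not searched for, so other promoters may hold one. The octamer core ATGCAAA, held by 4.12% of windows, and the SOX core CATTGT, held by 10.7%, matched in Nanog within this element. Sox2 had the octamer core at -99 to -93. The half-site AGGTCA, bound by nuclear receptors and held by 14.0% of windows, was in all 3 promoters, at -33 to -28 in Pou5f1. The GC box GGGGCGGGG, held by 10.4%, was in Pou5f1 at -46 to -38 and in Sox2 at -224 to -216 and -113 to -105. A match is a description of letters, and the distal enhancers of these genes lie outside the windows.

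All 3 factors were lower in shIno80 cells at days 4 and 6, and Nanog was the lowest relative to its shNT level. By day 4 the RNA of Nanog was at 7.66% of the shNT level, that of Pou5f1 at 45.6% and that of Sox2 at 43.1%. By day 6 the values were 15.2% for Nanog, 27.7% for Pou5f1 and 29.6% for Sox2. At day 2 none of the 3 passed the test. In the shNT arm the 3 genes remained bright on every array, and all 3 probes were well above background and unsaturated on all 12 arrays.

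**Figure D1:**
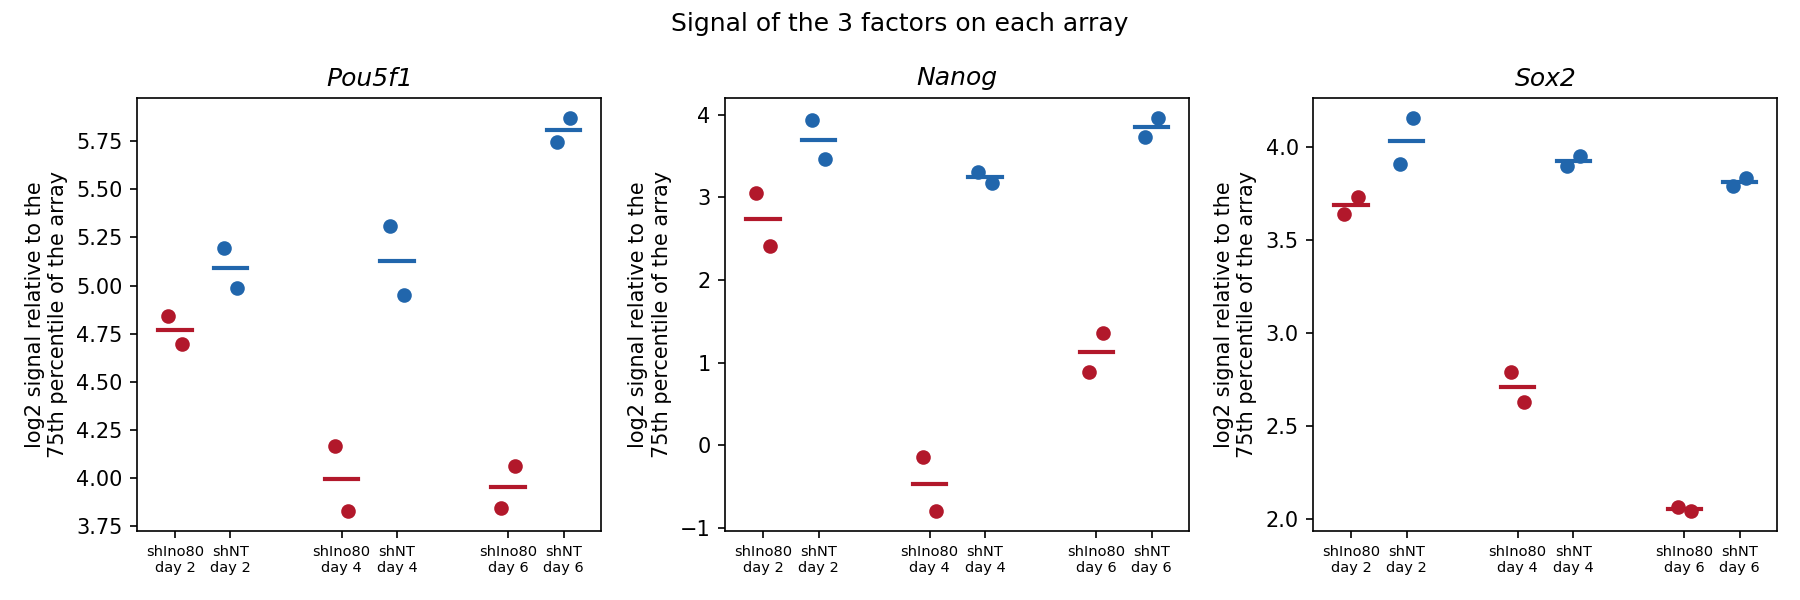
Signal of Pou5f1, Nanog and Sox2 on each of the 12 arrays, as log2 relative to the 75th percentile of the array, with shIno80 (red) left of shNT (blue) at each day. Points are arrays and bars are means of 2; the vertical axes differ between panels. No shIno80 array reached a shNT array of the same day, an arrangement that 13.7% of all genes tested shared on all 3 days. Nanog at day 4 in shIno80 was the only group with values below 0.

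Values are log2 of the processed intensity relative to the 75th percentile of each array, where 0 equals that percentile. They can be compared between arrays for a probe but not between probes. Differences are shIno80 minus shNT from a limma fit on all 12 arrays, with Benjamini-Hochberg adjustment over 19203 genes and a threshold of 0.05. At day 2, 12.4% of these genes passed, 6.17% of all genes lower and 6.24% higher. At day 4, 42.2% passed, 21.3% lower and 20.9% higher, and at day 6, 50.5% passed, 29.5% lower and 21% higher. The knockdown arm therefore differed from the control across much of the transcriptome, and a call alone does not set the 3 factors apart. In bulk RNA, fewer cells that express a gene and less RNA per cell cannot be told apart.

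Pou5f1, whose product OCT4 is needed at a set level to keep ESCs undifferentiated, was 4.84 and 4.70 in shIno80 and 5.20 and 4.99 in shNT at day 2. The difference of -0.32 (SE 0.17) missed the threshold (limma adjusted p = 0.281), and its 95% confidence interval was -0.71 to 0.07. At day 4 Pou5f1 was 4.16 and 3.83 in shIno80 and 5.31 and 4.95 in shNT. The difference between the arms was -1.13 on the log2 scale (SE 0.17, limma adjusted p = 0.000963), or 2.19-fold lower in shIno80. At day 6 it was 3.84 and 4.07 in shIno80 and 5.74 and 5.87 in shNT, a difference of -1.85 (SE 0.17, limma adjusted p = 5.39e-05) or 3.62-fold. With normexp background correction the day 4 value was -0.997 and was not called (limma adjusted p = 0.0905), while day 6 was.

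Between days 4 and 6, Pou5f1 moved in the control arm. Over this step the shIno80 mean moved by -0.04 (limma adjusted p = 0.868), whereas the shNT mean rose by 0.68 (limma adjusted p = 0.0341); 25.2% of genes were called over this step in shIno80 and 16.6% in shNT. The rise in shNT was no longer called in 3 of the repeats that left out 1 array, without shNT replicate 2 of day 4 (0.50, limma adjusted p = 0.218), shNT replicate 1 of day 6 (0.74, 0.0894) or shNT replicate 2 of day 6 (0.61, 0.141). Nor was it called with median scaling (0.71, limma adjusted p = 0.0546), with no filter on dim probes (0.68, 0.0699) or with normexp background correction (0.88, 0.509). Each slide held the 4 arrays of 1 day and was scanned once, so day and slide cannot be told apart in comparisons between days within an arm. Slide effects cancel between arms on the same day. The change of the difference itself between days 4 and 6 was -0.72 (SE 0.24, limma adjusted p = 0.157), and that between days 2 and 6 was -1.53 (SE 0.24, limma adjusted p = 0.00277).

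Nanog was 3.05 and 2.41 in shIno80 and 3.93 and 3.46 in shNT at day 2. The difference of -0.97 (SE 0.30) missed the threshold (limma adjusted p = 0.0734), with an interval of -1.65 to -0.28. At day 4 Nanog was -0.14 and -0.79 in shIno80 and 3.31 and 3.17 in shNT. The difference between the arms was -3.71 on the log2 scale (SE 0.30, limma adjusted p = 4.23e-05), or 13.0-fold lower in shIno80. It was the 22nd most negative difference among the 19203 genes. At day 6 it was 0.89 and 1.36 in shIno80 and 3.73 and 3.96 in shNT, a difference of -2.72 (SE 0.30, limma adjusted p = 0.000143) or 6.58-fold.

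Nanog in shIno80 was thus lowest at day 4 and in between at day 6, with the 3 groups of that arm apart from one another. It fell by 3.20 between days 2 and 4 (limma adjusted p = 0.000109), a step at which 38.7% of genes were called in shIno80 and 14.3% in shNT, and was 1.59 higher at day 6 than at day 4 (limma adjusted p = 0.00885), or 3.02-fold. The second step was not called with normexp background correction (1.44, limma adjusted p = 0.268), without shIno80 replicate 2 of day 4 (1.27, limma adjusted p = 0.0579) or without shIno80 replicate 2 of day 6 (1.36, 0.0722). In shNT, Nanog moved by -0.46 and 0.61 over the same steps, neither of which was called (limma adjusted p = 0.327 and 0.182). The test between arms of the step from day 4 to day 6 gave 0.99 (SE 0.42, limma adjusted p = 0.270, unadjusted 0.0466), so whether Nanog in shIno80 returned in part relative to shNT was not resolved.

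Sox2, which encodes the DNA-binding partner of OCT4, was 3.64 and 3.73 in shIno80 and 3.91 and 4.16 in shNT at day 2. The difference of -0.35 (SE 0.11) missed the threshold (limma adjusted p = 0.0831) and passed it without shNT replicate 1 of that day (-0.47, limma adjusted p = 0.0464). At day 4 Sox2 was 2.79 and 2.63 in shIno80 and 3.90 and 3.95 in shNT, a difference of -1.21 (SE 0.11, limma adjusted p = 7.98e-05) or 2.32-fold. At day 6 it was 2.06 and 2.04 in shIno80 and 3.79 and 3.84 in shNT, a difference of -1.76 (SE 0.11, limma adjusted p = 1.03e-05) or 3.38-fold. Within shIno80, Sox2 fell at both steps, by 0.97 between days 2 and 4 (limma adjusted p = 0.000308) and by 0.66 between days 4 and 6 (limma adjusted p = 0.00631). With normexp background correction the step from day 4 to day 6 was -0.63 and was not called (limma adjusted p = 0.330). In shNT it moved by -0.11 at each step (limma adjusted p = 0.541 and 0.489).

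**Figure D2:**
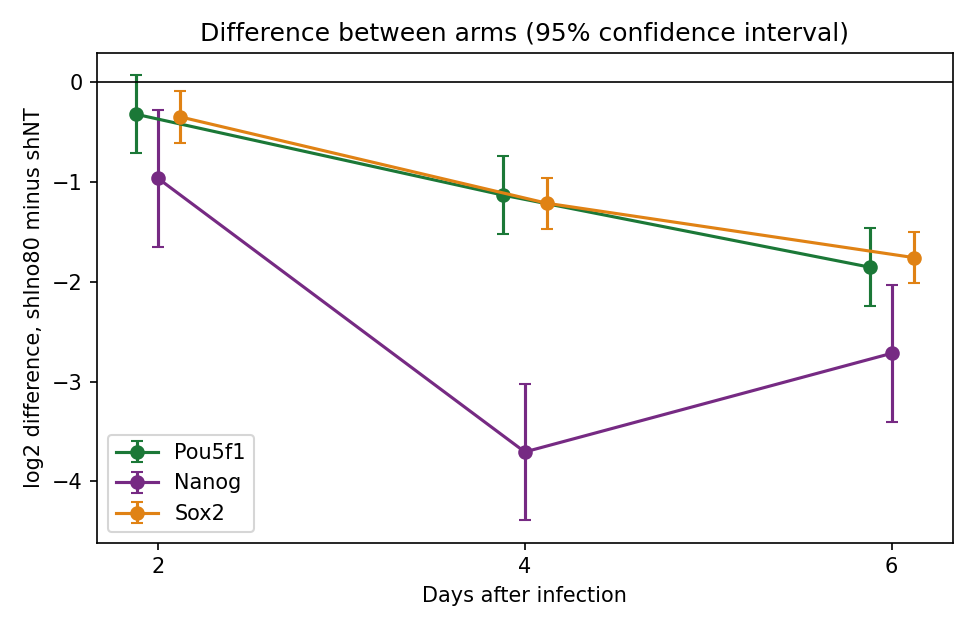
Difference between shIno80 and shNT in log2 signal at days 2, 4 and 6, with 95% confidence intervals from the limma fit (2 arrays per group, spread shared over 6 groups). Pou5f1 and Sox2 lie close together, at -1.13 and -1.21 at day 4, and Nanog is lower, at -3.71 at day 4 and -2.72 at day 6.

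The 6 arrays that both records place in the same group, 1 per arm and day, gave differences of the same sign for each factor on each day. For Pou5f1 they were -0.50, -1.48 and -1.68 at days 2, 4 and 6, for Nanog -1.52, -4.10 and -2.36, and for Sox2 -0.18, -1.27 and -1.74. A limma fit of the mean over days on these arrays has 2 residual degrees of freedom and calls 0 of 19203 genes, with adjusted p = 0.0819 for Nanog, 0.0955 for Pou5f1 and 0.140 for Sox2 (unadjusted 0.00409, 0.00945 and 0.0287). With all 12 arrays, the mean over days was -2.46 for Nanog (SE 0.17, limma adjusted p = 7.83e-06), -1.10 for Pou5f1 (SE 0.10, 2.83e-05) and -1.11 for Sox2 (SE 0.06, 3.22e-06), in a contrast that calls 56.4% of genes. This restriction was chosen after the data had been seen.

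For every member, both shIno80 arrays lay under both shNT arrays on all 3 days, an arrangement shared by 13.7% of the genes tested. From the highest group mean to the lowest, Pou5f1 was ordered shNT day 6, shNT day 4, shNT day 2, shIno80 day 2, shIno80 day 4 and shIno80 day 6. The ranges of shNT at days 4 and 2 overlapped, as did those of shIno80 at days 4 and 6. Nanog was ordered shNT day 6, shNT day 2, shNT day 4, shIno80 day 2, shIno80 day 6 and shIno80 day 4, with overlap between the first pair. Sox2 followed shNT day 2, shNT day 4, shNT day 6, shIno80 day 2, shIno80 day 4 and shIno80 day 6, again with overlap between the first pair.

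The difference between arms widened from day 2 to day 4 for Nanog and Sox2, and the Pou5f1 value, close to that of Sox2, fell just outside the threshold. The change was -2.74 for Nanog (SE 0.42, limma adjusted p = 0.00488), -0.87 for Sox2 (SE 0.16, limma adjusted p = 0.00967) and -0.81 for Pou5f1 (SE 0.24, limma adjusted p = 0.0578), against 15.3% of genes called in this contrast. The Pou5f1 change passed in the deposited value table (-0.81, limma adjusted p = 0.0474) and when only genes measured well above background on each of the 12 arrays were kept (-0.81, 0.0367). With normexp background correction the changes for Nanog (-2.76) and Sox2 (-1.08) were not called (limma adjusted p = 0.159 and 0.291). From day 4 to day 6 no member was called, with 3.79% of genes called, although Sox2 passed with quantile normalization (-0.65, limma adjusted p = 0.0211). From day 2 to day 6 all 3 were called, at -1.53 for Pou5f1, -1.75 for Nanog and -1.41 for Sox2 (SE 0.16, limma adjusted p = 0.000618), with 27% of genes called. For Nanog that last change of -1.75 (SE 0.42, limma adjusted p = 0.0174) missed the threshold in 4 of the repeats that left out 1 array. These were without shNT replicate 2 of day 2 (-1.52, limma adjusted p = 0.0503), shIno80 replicate 1 of day 2 (-1.43, 0.0531), shNT replicate 2 of day 6 (-1.63, 0.0554) or shIno80 replicate 1 of day 6 (-1.52, 0.0613). With normexp the day 2 to day 6 changes of Pou5f1 (-1.93, limma adjusted p = 0.0645) and Nanog (-2.06, 0.120) were not called either.

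Ratios between 2 factors on the same array do not depend on the scaling between arrays, and they set Nanog apart from Pou5f1 and Sox2. Probes differ in how brightly they report a transcript, so only the change of a ratio between arms is read. The log2 ratio of Nanog to Pou5f1 was -1.79 and -2.29 in shIno80 and -1.27 and -1.52 in shNT at day 2. At day 4 it was -4.30 and -4.62 in shIno80 and -2.0 and -1.78 in shNT. At day 6 it was -2.95 and -2.70 in shIno80 and -2.02 and -1.91 in shNT. The arms did not overlap on any day.

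Averaged over the 3 days, Nanog/Pou5f1 was lower in shIno80 by 1.36 on the log2 scale, or 2.57-fold (exact two-sided permutation within days, p = 0.00926, adjusted over 3 pairs 0.0278), the smallest p that 216 relabellings allow. Nanog/Sox2 was also lower by 1.36, or 2.56-fold (exact permutation p = 0.0185, adjusted 0.0278). Its change at days 2, 4 and 6 was -0.62, -2.49 and -0.96. The arms overlapped at day 2, with -0.59 and -1.32 in shIno80 and 0.02 and -0.70 in shNT. Pou5f1/Sox2 changed by 0.03, 0.08 and -0.10 at days 2, 4 and 6, with a mean of 0.0039 (exact permutation p = 0.991). Over the repeats that left out 1 array this mean lay between -0.07 and 0.08. The arms overlapped on every day, so a change in the balance of OCT4 and SOX2 transcripts was not detectable here.

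**Figure D3:**
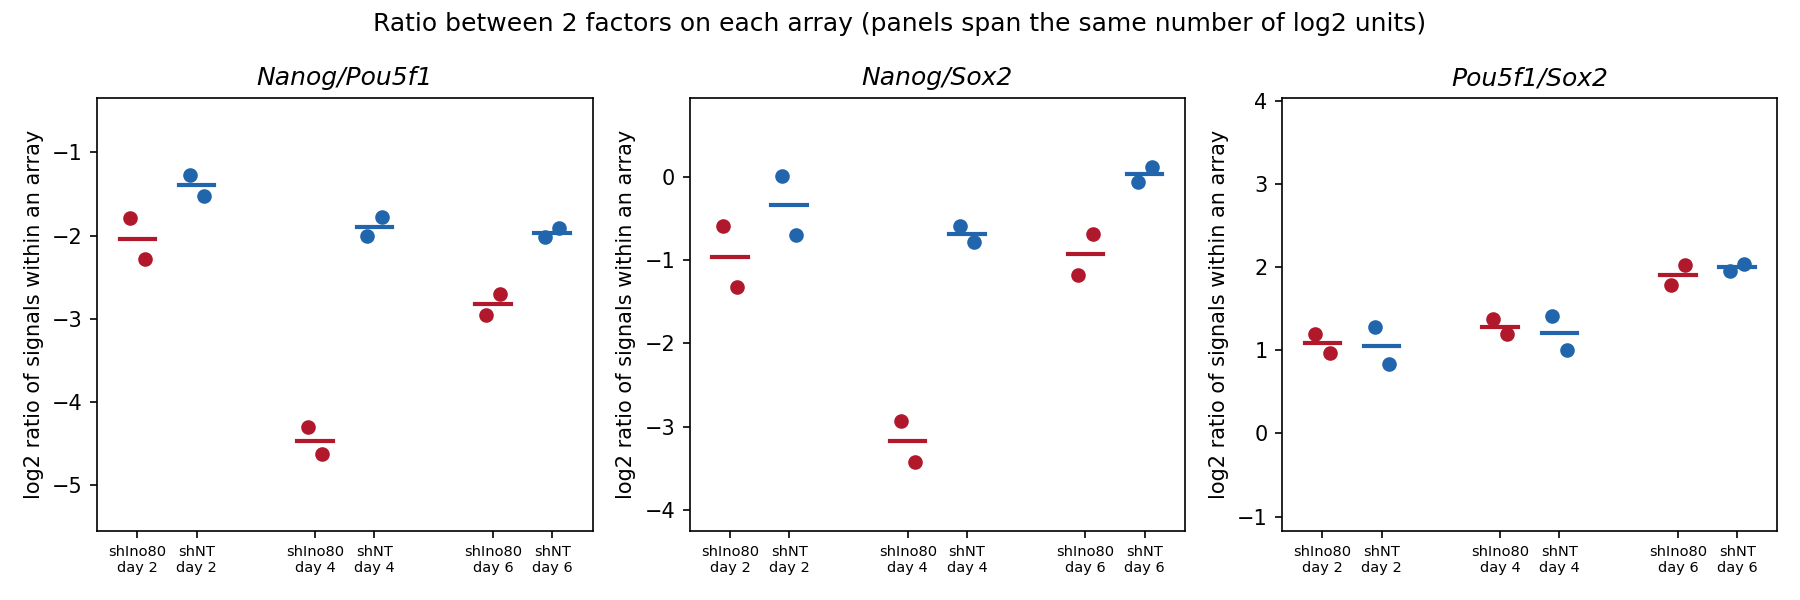
The log2 ratio of 2 factors on each array, with shIno80 (red) left of shNT (blue) at each day; points are arrays, bars are means of 2, and the 3 panels span the same number of log2 units. In shIno80, Nanog was lower relative to Pou5f1 and Sox2, most at day 4, while Pou5f1/Sox2 overlapped between the arms at each day.

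Genes reported to carry OCT4-SOX2 elements or to be joint targets of the 3 proteins, called network targets here, were lower in most cases at day 4 and in all tested at day 6. Of 20 such genes, 19 were on the array and tested. Of these, 4 were lower, 0 higher and 15 not called at day 2, 18 were lower and 0 higher at day 4, and 19 were lower and 0 higher at day 6. The list's median difference was -0.38, -1.34 and -1.82 at days 2, 4 and 6, against 0.02, -0.05 and -0.14 over all genes. Of all genes, 6.17%, 21.3% and 29.5% were called lower on these days. Eras, Jarid2, Spp1 and Tdgf1 were lower on all 3 days. Phc1 (-0.20), a Polycomb gene, was the target not called at day 4.

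Tcl1, an AKT co-activator, had the most negative difference of the targets at day 6. It was -1.13 and -0.51 in shIno80 and 2.34 and 2.54 in shNT, a difference of -3.26 (SE 0.28, limma adjusted p = 4.11e-05). Spp1, which encodes the secreted protein osteopontin, was 2.76 and 2.95 in shIno80 and 5.61 and 5.84 in shNT at day 6 (-2.87, limma adjusted p = 2.01e-06). Spp1 was already lower in shIno80 by 0.57 at day 2 (limma adjusted p = 0.0225), before any of the 3 factors was called. The order of calls also depends on each gene's spread.

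Many protein partners of the factors were also lower at days 4 and 6. Of 29, 4 were lower and 0 higher at day 2, 23 lower and 0 higher at day 4, and 20 lower and 1 higher at day 6. The all-gene shares called lower were 6.17%, 21.3% and 29.5%. List medians were -0.18, -0.56 and -0.63, against 0.02, -0.05 and -0.14 over all genes. Some partners, Esrrb and Nr0b1 included, are also counted among the network targets. The partner with the most negative difference at day 6 was Tet2, a 5-methylcytosine dioxygenase that partners NANOG, at -1.22, -2.36 and -2.94 over the 3 days (limma adjusted p = 0.0223, 0.000202 and 4.79e-05). Esrrb, an orphan nuclear receptor that is both a partner and a target of the network, had differences of -0.31 (not called), -2.87 and -2.53. Like Nanog, Esrrb in shIno80 was lower at day 4, at 1.77 and 1.40, than at day 6, at 2.35 and 2.94; the shNT values were 4.52 and 4.39 at day 4 and 4.96 and 5.38 at day 6. At day 4 Nr0b1, an orphan receptor that binds OCT4, was lower than Tet2, at -3.07 (limma adjusted p = 0.000108). Of the NuRD subunits, Chd4, Mta1, Mta2, Mbd3 and Hdac2 were not called at day 6, whereas Gatad2b was lower on all 3 days. The remodeller subunits Smarca4 and Smarcc1 were not called on any day. At day 4 only 6 of the 29 partners were not called, with Smarca4, Smarcc1 and Gatad2a among them. Some of the NuRD subunits not called at day 6 were therefore called lower at day 4. Gatad2a, also in NuRD, was the single partner called higher at day 6, by 0.25 (limma adjusted p = 0.0374), and its other probe gave -0.03.

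Among genes known to regulate transcription of the 3 factors, 22 of 24 were tested. Day 2 had 3 lower and 1 higher, day 4 had 14 lower and 2 higher, and day 6 had 13 lower and 1 higher. The list medians were -0.05, -0.58 and -0.59, against 0.02, -0.05 and -0.14 over all genes. All-gene shares called lower were again 6.17%, 21.3% and 29.5%. Klf4, Nr5a2, Nr6a1 and Tbx3 were called on all 3 days. A pair of orphan nuclear receptors known to act on Pou5f1 through its proximal promoter moved in opposite directions. Nr5a2 (LRH-1), an activator of Pou5f1, was lower on each day, and Nr6a1 (GCNF), its repressor during differentiation, was higher on each day.

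At day 2, Nr5a2 was 2.14 and 2.34 in shIno80 and 3.60 and 4.12 in shNT, a difference of -1.62 (SE 0.18, limma adjusted p = 0.00188). Its differences at days 4 and 6 were -2.93 and -2.28 (limma adjusted p = 1.45e-05 and 2.63e-05). At day 2, Nr6a1 was 1.69 and 1.43 in shIno80 and 0.86 and 0.65 in shNT, a difference of 0.80 (SE 0.15, limma adjusted p = 0.0120), followed by 0.86 and 0.94 (limma adjusted p = 0.00181 and 0.000949). Both genes were thus called at day 2, when Pou5f1 differed by -0.32 and was not called. The difference between these genes was not tested, so no order is read. Day 2 calls depended on the processing. Over the alternatives other than leaving out an array, 0 to 1 upstream regulators were called higher at day 2 and 0 to 5 lower. Over the fits without 1 array, 0 to 1 were called higher and 2 to 4 lower. Tbx3, a T-box activator in the ESC network, was -1.18, -3.06 and -2.36 (limma adjusted p = 0.00306, 6.49e-06 and 1.05e-05). Its other probe gave -1.24, 0.01 and -1.20 and was not called on any day, so the Tbx3 calls rest on 1 probe.

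Relatives of the factors were called in both directions, and their counts are read against all genes, of which 29.5% were lower and 21% higher at day 6. Of 12 POU genes tested, 2 were lower and 1 higher at day 2, 1 lower and 3 higher at day 4, and 2 lower and 3 higher at day 6, with a median of -0.22 at day 6 against -0.14 over all genes. Pou3f1, also called Oct6 and typical of primed pluripotency and neural cells, was higher in shIno80 at day 4. It was 5.55 and 5.72 in shIno80 and 4.15 and 3.98 in shNT, a difference of 1.57 (SE 0.31, limma adjusted p = 0.00414), with 0.89 at day 6 (limma adjusted p = 0.0422). Pou4f2 and Pou2f2, at -1.38 and -0.87 at day 6 (limma adjusted p = 0.00309 and 0.0419), and Pou4f3, at 0.85, were dim throughout. The reported Pou4f3 probe was not well above background on any day 6 array, and its other probe was lower, at -0.38 (limma adjusted p = 0.0262 over probes), so no direction is read for it.

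Of 15 SOX genes tested, 1 was lower and 2 higher at day 2, 3 lower and 1 higher at day 4, and 4 lower and 2 higher at day 6, with a day 6 median of -0.14, against -0.14 over all genes. Sox15, which can pair with OCT4 in ESCs, was -1.46 and -1.34 in shIno80 and 0.23 and 0.27 in shNT at day 6, a difference of -1.66 (SE 0.18, limma adjusted p = 0.000132). Sox18, an endothelial SOX gene, was -2.15 at day 6 (limma adjusted p = 0.000118) and was not called earlier. Sox11, a neural progenitor gene, was higher by 1.20, 1.30 and 1.64 (limma adjusted p = 0.0403, 0.00978 and 0.00252), and its other 5 probes ranged from -0.08 to 1.94. Sox6 was 1.53 higher at day 6 (limma adjusted p = 0.0486), where its other probe gave 0.33.

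**Figure D4:**
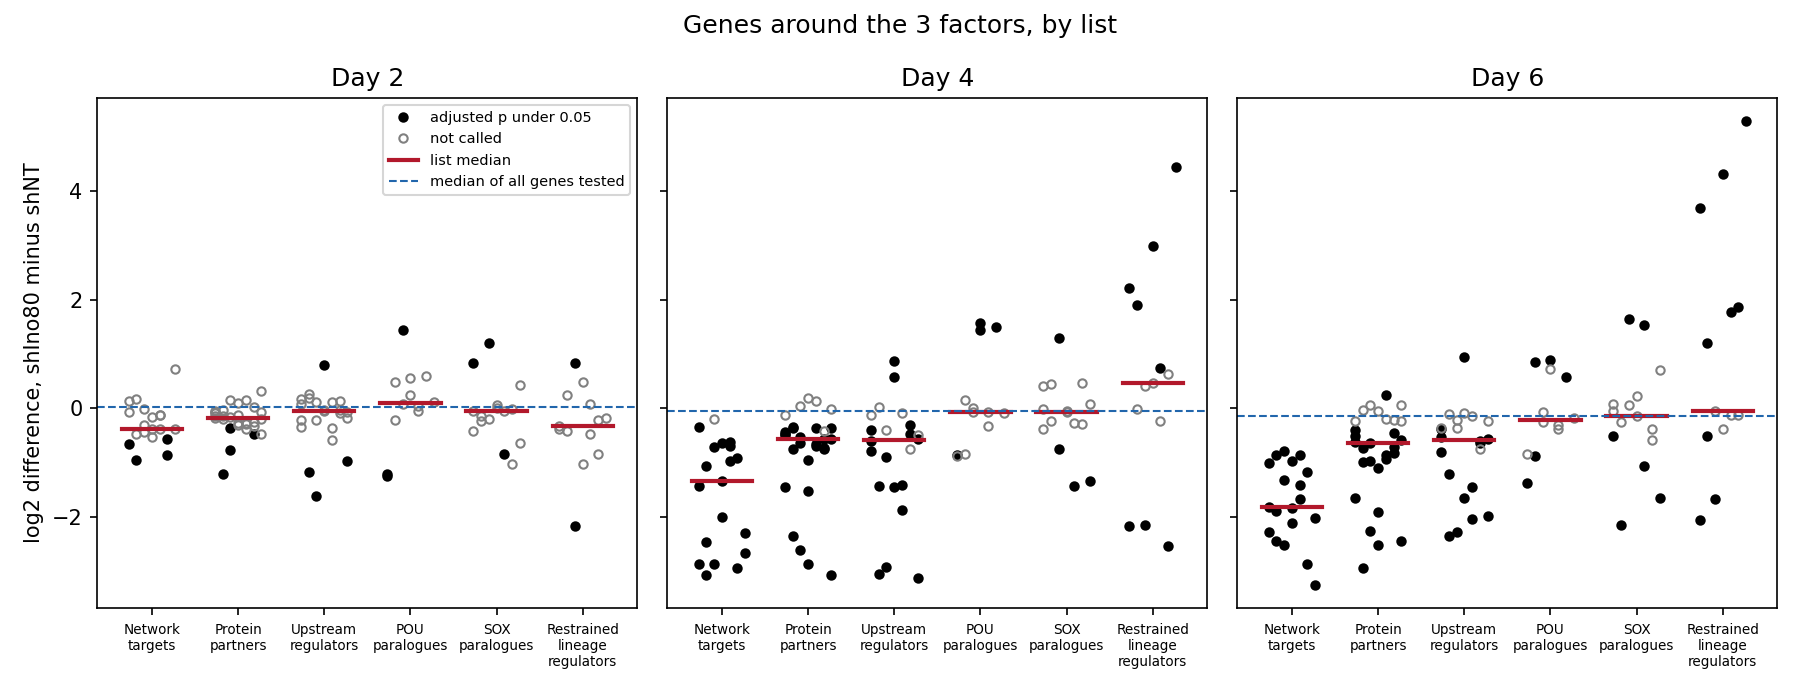
Difference between shIno80 and shNT (log2) at days 2, 4 and 6 for the tested genes of 6 lists; filled points passed adjusted p 0.05 in limma, red bars are list medians and the dashed line is the median of all genes. Network targets had medians of -1.34 at day 4 and -1.82 at day 6, while POU and SOX paralogues lay around the median of all genes.

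Regulators of other lineages that the 3 proteins are known to hold back were called in both directions. Of 14 listed, 13 were tested, and Elf5 was not. Of these 13, 1 was lower and 1 higher at day 2, 3 lower and 5 higher at day 4, and 3 lower and 6 higher at day 6. Among all genes, 21.3% were lower and 20.9% higher at day 4, and 29.5% and 21% at day 6. The list medians were -0.32, 0.46 and -0.06 at days 2, 4 and 6, against 0.02, -0.05 and -0.14 over all genes. The trophectoderm regulators Hand1, Cdx2, Gata3, Eomes and Tfap2a were all called higher at day 6. Hand1 was 2.41 and 2.32 in shIno80 and -2.77 and -3.09 in shNT at day 6, a difference of 5.29 (SE 0.13, limma adjusted p = 4.89e-07). Cdx2, whose gene OCT4 represses directly, was 0.36 and 0.25 in shIno80 and -3.30 and -3.45 in shNT at day 6, a difference of 3.68 (SE 0.51, limma adjusted p = 0.000468), after 2.23 at day 4 (limma adjusted p = 0.00783) and no call at day 2. Gata3 was higher by 4.31 and Eomes by 1.20 at day 6 (limma adjusted p = 1.85e-05 and 0.000195).

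The primitive endoderm, neural and mesodermal regulators gave mixed values, and no test of a split by lineage was run. Gata6, a primitive endoderm factor that NANOG opposes, was -0.84 (not called), -2.53 (limma adjusted p = 0.000298) and -0.13 (not called) at days 2, 4 and 6, and its other probe gave -0.53, -1.0 and -0.24. Sox17, another primitive endoderm factor, was higher by 0.84 at day 2 (limma adjusted p = 0.0223) and was not called later, and Gata4 and Sox7 were not called on any day. The neural regulators Pax6 and Sox1 were at -2.06 and -0.52 at day 6 (limma adjusted p = 0.00184 and 0.0148). The mesodermal regulators moved in opposite directions. Evx1 was -2.16 at day 2 and -1.67 at day 6 (limma adjusted p = 0.00797 and 0.00448), whereas T (Brachyury) was higher by 0.74 at day 4 and 1.77 at day 6 (limma adjusted p = 0.0402 and 0.000506).

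Trophectoderm markers were mostly called higher and pluripotent stem cell markers lower in shIno80 at days 4 and 6. Of 9 trophectoderm markers tested, 0 were lower on any day, and 2, 8 and 9 were higher at days 2, 4 and 6. The all-gene shares called higher were 6.24%, 20.9% and 21%. Cdx2, Hand1, Eomes, Gata3 and Tfap2a are also counted among the lineage regulators above. The summed signal of the 9 markers, in multiples of the 75th percentile, was 148 to 159 in shIno80 and 7.92 to 9.85 in shNT at day 4. At day 6 it was 507 to 530 in shIno80 and 16.8 to 21.6 in shNT. Brighter probes weigh more in such a sum. In shIno80 at day 6, for example, Krt7 was 4.91 and 5.04 on the log2 scale and Cdx2 0.36 and 0.25. Probes are not on a common scale, so the sum describes mainly the brightest markers and no share of a marker is read from it. The same holds for the sums of the other lists. Krt7, a simple-epithelium keratin, and Esx1, a placental homeobox gene, were higher by 5.37 and 5.92 at day 6 (limma adjusted p = 2.87e-06 and 1.98e-07). None of the 9 tested markers was at background in a whole group. No probe of Elf5, the other of the 10 listed markers, passed the filters on flags and dim signal. The counts therefore cover only markers that passed, and no direction is given for Elf5. Of 9 pluripotent stem cell markers tested, 2, 9 and 9 were lower, against 6.17%, 21.3% and 29.5% of all genes. The sum of these 9 was 252 to 260 in shIno80 and 600.3 to 659.3 in shNT at day 6. All 9 were well above background in every group, and 8 of them also stand in a list above.

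Of 8 primitive endoderm markers, 1, 3 and 2 were lower and 2, 1 and 1 higher at days 2, 4 and 6. The shares of all genes were 6.17%, 21.3% and 29.5% lower and 6.24%, 20.9% and 21% higher. They are the background for the neural and fibroblast lists too. The endoderm sums overlapped at day 6, at 2.18 to 2.34 in shIno80 and 2.15 to 2.58 in shNT. The endocytic adaptor gene Dab2 was 1.92 higher and the laminin gene Lama1 1.35 lower at day 6 (limma adjusted p = 6.86e-06 and 0.000316), and the other Dab2 probe gave 1.03. Of 6 neural ectoderm markers, 0, 2 and 4 were lower and 1, 2 and 2 higher, the higher ones including Zic1 at day 6. Zic1 was then higher by 2.95 on the log2 scale (limma adjusted p = 0.00205), with -5.66 and -7.25 in shNT. It was not well above background on either shNT array, so the size of its difference is uncertain. Of 9 fibroblast markers, listed because feeder cells could be present, 1 was lower on each day and 0, 5 and 5 were higher. Their sum at day 6 was 34.4 to 36.2 in shIno80 and 20.8 to 21.7 in shNT. The collagen gene Col1a1 was higher by 3.88 and Dcn, which encodes decorin, by 3.82 at day 6 (limma adjusted p = 9.86e-07 and 4.70e-05). The part of these cell types in the values of the 3 factors was not tested.

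Across the 12 arrays, many genes followed the profile of each factor closely, as a description of arrays that share groups, slides and RNA. Among 12879 named genes well above background on every array, 606 correlated with Pou5f1, 523 with Nanog and 994 with Sox2 at Pearson r above 0.9. The factors were less alike with one another, at 0.90 for Pou5f1 and Nanog, 0.83 for Pou5f1 and Sox2 and 0.81 for Nanog and Sox2. Nearest to Pou5f1 were Reep6 (r = 0.993), Il17b, Cct6a, Gfm2 and Ephb2. Of these, Reep6 and Il17b also matched its size of change, with root mean square differences of 0.10 and 0.11 on the log2 scale, and the chaperonin gene Cct6a and Gfm2 moved less, at -0.65 and -0.53 at day 6.

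Among the genes nearest to Nanog were Gli2 (r = 0.991), a Hedgehog transcription factor, Notum, a secreted Wnt inhibitor, Wdr62 and Mybl2. Gli2 shared the low point at day 4, with -3.44 and -3.49 in shIno80 and 0.40 and 0.23 in shNT, and had -2.54 and -2.0 in shIno80 and 0.77 and 1.12 in shNT at day 6. Its other probe gave -0.58 at day 4 and -1.86 at day 6, so the likeness rests on the brighter probe. Both Notum probes were low at day 4, at -3.11 and -3.42.

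Nearest to Sox2 were Morc3 (r = 0.995), Tex9, Mcm10, Morc1 and Wdr82. Morc3, which encodes a nuclear ATPase, differed by -0.34, -1.27 and -1.60 over the 3 days, and its root mean square difference from the Sox2 profile was 0.09. Mcm10, a DNA replication factor, and the germ line gene Morc1 had more negative differences than Sox2 at day 6, at -2.26 and -3.09.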

How the data were processed

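RNA of 12 samples was hybridised to 12 single-colour Agilent arrays. The deposited scanner files hold intensity values per spot from Feature Extraction 9.5.3.1, background-subtracted and detrended within each array but not scaled between arrays, per the file headers. The labels name Cy5, while the files hold green columns. The authors' value table is on the log2 scale. Every column of it is proportional to the mean spot signal in 1 scanner file (relative tolerance 1e-06), and this match joined scanner files to samples. No source used here explains the proportionality factors. Per array, 62.3% to 69.7% of spots were well above background, 0 to 4 were saturated, and the 75th percentile of intensity was 1162 to 1643; the number of arrays limits the precision.

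Values were log2 processed intensity minus the 75th percentile of each array. Spots flagged as outliers by the scanner software were removed and the remaining spots of a probe averaged. Of 41174 probes, 125 had no spot left on some array, and 28680 were kept because both arrays of some group had them well above background. The brightest kept probe stood for each of 19203 genes. Through RefSeq (GRCm38.p6), accessions named 23082 probes, current symbols 6582 and synonyms 3073, with the remaining 8437 left under the file's name. A limma 3.58.1 model (R 4.3.3) with 1 mean for each of 6 groups had 6 residual and 2.2 prior degrees of freedom. The fit was tested on simulated data for the day 4 comparison, where it recovered 58 of 100 genes changed by 1 and 82 of 100 changed by 2 on the log2 scale, with 4 false calls among 19203 genes. In the data, 42.2% of genes were called at day 4, a far larger share than was changed in the simulation. The adjusted threshold depends on that share, so these rates do not carry over to the data. Ratios were tested by exact permutation within days.

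The 3 factors and the gene lists were chosen with earlier results of these data known. Named genes are the 3 factors, Ino80, Cdx2, Gata6, Eomes and Hand1, from each list the 2 largest called differences in each direction at day 6, from each marker list the 2 largest in size, and the 5 genes most correlated with each factor, of which 1 is not reported here. Eras, Jarid2, Tdgf1, Phc1, Klf4, Nr0b1, Tfap2a, T, Sox1, Sox7, Sox17, Gata4, Gatad2b and the uncalled NuRD, Smarca4 and Smarcc1 genes were named after their values were seen. Elf5 was named because it was not tested. Alternatives were other scalings, normexp background correction, the deposited value table, other filters on dim probes, the mean of a gene's probes, fits on 1 day, a replicate block, the scanner files' attachments and leaving out each array.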

Additional observations from a re-analysis of the deposited data

Results flagged for a closer look

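The difference between shIno80 and shNT was not the same at each day for the 3 factors, as the tests of the difference between days showed. From day 2 to day 4 it changed by -2.74 on the log2 scale for Nanog (limma adjusted p = 0.00488), lower in shIno80 on 2 of 2 arrays at both days. For Sox2 the same step was -0.87 (limma adjusted p = 0.00967). From day 2 to day 6 the change was -1.53 for Pou5f1 (limma adjusted p = 0.00277), -1.75 for Nanog (limma adjusted p = 0.0174) and -1.41 for Sox2 (limma adjusted p = 0.000618). Each slide held 1 day, and slide effects cancel in these contrasts only if they are additive.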

How the results depend on the processing

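Counts of genes called at days 2, 4 and 6 were 2383, 8109 and 9698. At day 2 the count was 5 with normexp background correction, 1364 with no filter on dim probes, 6 with only the 4 arrays of that day and 3826 with the replicate block, and 1082 to 2002 over fits that left out 1 array. With normexp the counts at days 4 and 6 were 1688 and 2911, Pou5f1 was 0.030 at day 2 (adjusted p = 0.943) and -0.997 at day 4 (adjusted p = 0.0905), and Nanog and Sox2 at day 4 and all 3 at day 6 were still called. Nanog passed at day 2 with genes well above background on all 12 arrays (-0.97, adjusted p = 0.0425). The deviations between replicates 1 and 2 had weak positive correlations between the arms (0.30, 0.12 and 0.08 at days 2, 4 and 6). These values do not settle whether the replicate numbers pair the samples, and the reported fit holds no such pairing. With the replicate block, Pou5f1 (-0.32, adjusted p = 0.0399) and Nanog (-0.97, adjusted p = 0.0186) passed at day 2, as did the change of the Pou5f1 difference from day 2 to 4 (-0.81, adjusted p = 0.00958) and from day 4 to 6 (-0.72, adjusted p = 0.0316) and the step of Nanog in shNT from day 4 to 6 (0.61, adjusted p = 0.0393). Over the fits without 1 array, Sox2 at day 2 lay between -0.47 and -0.23, all 3 factors were still called at days 4 and 6, and the Pou5f1/Sox2 ratio lay between -0.072 and 0.080. Of the calls at day 4, 39.2% were higher with median scaling and 49.6% in the reported fit, and of those at day 6, 62.0% were higher in the value table and 41.6% in the reported fit. The median of all genes moved to -0.30, -0.19 and 0.10 at days 2, 4 and 6 with normexp, to -0.19 at day 4 with median scaling, and to 0.06 at day 6 with the value table, from 0.02, -0.05 and -0.14. Over the alternatives with the value table's groups, including fits without 1 array, the number of network targets called lower was 0 to 9 at day 2, 10 to 18 at day 4 and 17 to 19 at day 6, with 0 higher; for partners the lower counts were 0 to 7, 5 to 23 and 10 to 21, and for upstream regulators 0 to 5, 7 to 17 and 7 to 15. Counts of 6 or fewer in the other lists often moved by more than 1.5 times. The cause of these shifts was not tested.

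Under the scanner files' attachments, 2, 7 and 0 genes were called. Pou5f1 was -0.35 at day 4 and 0.17 at day 6, Nanog -0.40 and 0.35, and Sox2 0.17, -0.055 and 0.014 at days 2, 4 and 6 and 0.043 over days. Nanog/Pou5f1 was then -0.083, Nanog/Sox2 -0.24 and Pou5f1/Sox2 -0.16. The change of the difference was 0.15 for Nanog from day 2 to 4, 0.52 for Pou5f1 and 0.068 for Sox2 from day 4 to 6, and 0.35 for Pou5f1 and 0.91 for Nanog from day 2 to 6. Within shIno80, Pou5f1 was 0.58 from day 4 to 6 and 0.13 from day 2 to 6, and within shNT it was -0.28 from day 2 to 4 and -0.22 from day 2 to 6, with Nanog at -1.18 from day 2 to 6.

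Steps within an arm that were close to 0 changed sign. Pou5f1 in shIno80 from day 4 to 6 was 0.042 with median scaling, 0.17 with quantile normalization, 0.24 in the value table and -0.21 to 0.12 without 1 array. In shNT from day 2 to 4, Pou5f1 was -0.14 with quantile normalization and -0.14 to 0.22 without 1 array, and Sox2 was 0.016 with normexp and -0.23 to 0.014 without 1 array. In shNT, Sox2 from day 4 to 6 was 0.056 with quantile normalization and 0.035 with normexp, and 0.051 from day 2 to 6 with normexp; Nanog from day 2 to 6 was -0.085 to 0.38 without 1 array.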
